A study of Mus musculus with 6 samples.

Results

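The comparison described here is that of mouse AE9a leukemia cells given 4-hydroxytamoxifen (4-OHT) for 48 h to delete Id1 against control cells of the same line. It covers the 10172 of 21881 entries of the deposited 4-OHT table that have the status OK and at least 1 FPKM (fragments per kilobase of transcript, scaled to the mapped fragments of a library) in the higher of both columns. Of the 11232 entries with the status OK, the others stay under that level. Genes were ranked by the log2 fold of 4-OHT over control with 0.1 FPKM added to each value. Each was also marked for whether its 4-OHT value lies on the same side of a second control, the control column of a separately made table on CBD, a compound that the design text calls an Id1 inhibitor. A gene is said to have risen or fallen when the authors' q (their p-value corrected over all genes) is under 0.05. The settings of their test are not given, so whether q takes in the spread between samples of a group is not known. These words therefore do not mean a replicated effect.

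All 6 samples of the study are AE9a leukemia cells on the C57/B6X129SV background with loxP-flanked Id1 (Id1fl/fl) and CreER, and 2 samples stand in each of 3 groups. AE9a is a shortened form of the AML1-ETO fusion protein that causes myeloid leukemia in mice, and CreER is a Cre recombinase that stays inactive until 4-OHT, the active form of tamoxifen, binds to it. The groups used here are the control cells of either table and the cells given 4-OHT at 0.1 µM for 48 h, while the CBD group received 15 µM for 16 h. The control labels name the genotype alone, with no vehicle and no arm that received 4-OHT without loxP sites, so effects of Id1 loss, of Cre and of 4-OHT itself cannot be told apart. The labels do not say whether the line is 1 clone, whether samples of a group were separate cultures, or how many libraries went into either control value. Only 2 control samples exist for the control columns of both tables. The second control is therefore another column and not a known separate group of samples. Each table gives 1 value per group, so no replicate spread can be given for any FPKM. Sequencing depth is unknown.

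Id1 belongs to the inhibitors of DNA binding, small helix-loop-helix proteins that pair with E proteins and keep them off the E-box sequences in promoters and enhancers. In blood progenitors these proteins favour growth over differentiation, and E proteins act together with GATA and RUNX factors, among them the AML1-ETO fusion. Several of the gene groups described below are controlled by well-studied factors. SREBP2 and its partner NF-Y switch on cholesterol synthesis, HIF1 binds a short ACGTG core upstream of glycolytic genes, ATF4 with a C/EBP partner switches on amino acid uptake, and GATA2 works with E-box binding factors at mast cell genes.

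Promoters of 6 genes are printed because they stand for the groups described below: HIF1-type genes that rose (Bnip3, Ldha), a cholesterol gene that rose (Sc4mol), an amino acid transporter gene that fell (Slc7a11) and mast cell protease genes that fell (Cpa3, Mcpt8). They run from 250 bases before to 50 bases after the RefSeq start on GRCm38.p6, a later build than the mm9 of the tables, and 8055 of the 10172 genes had such a sequence. Capitals mark every match, on either strand, to ACGTG in the first pair, to ATTGG in Sc4mol, to TGATGCAA in Slc7a11, and to CANNTG or AGATAA in the last pair. Overlapping matches run together, so that CACGTG is 1 site read on both strands.
Bnip3 (chr7:138909457-138909756, minus strand): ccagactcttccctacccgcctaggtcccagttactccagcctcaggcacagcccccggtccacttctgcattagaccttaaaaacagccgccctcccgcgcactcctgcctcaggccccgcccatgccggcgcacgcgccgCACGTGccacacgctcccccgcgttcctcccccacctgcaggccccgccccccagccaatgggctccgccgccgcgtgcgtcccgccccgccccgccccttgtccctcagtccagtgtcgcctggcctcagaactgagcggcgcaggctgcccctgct
Ldha (chr7:46845554-46845853, plus strand): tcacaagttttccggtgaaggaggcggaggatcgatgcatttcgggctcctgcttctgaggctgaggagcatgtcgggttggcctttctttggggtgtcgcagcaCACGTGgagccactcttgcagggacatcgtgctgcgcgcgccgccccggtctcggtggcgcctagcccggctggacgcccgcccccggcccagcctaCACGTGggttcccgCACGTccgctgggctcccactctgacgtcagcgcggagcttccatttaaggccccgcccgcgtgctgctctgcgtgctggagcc
Sc4mol (chr8:64733529-64733828, minus strand, RefSeq symbol Msmo1): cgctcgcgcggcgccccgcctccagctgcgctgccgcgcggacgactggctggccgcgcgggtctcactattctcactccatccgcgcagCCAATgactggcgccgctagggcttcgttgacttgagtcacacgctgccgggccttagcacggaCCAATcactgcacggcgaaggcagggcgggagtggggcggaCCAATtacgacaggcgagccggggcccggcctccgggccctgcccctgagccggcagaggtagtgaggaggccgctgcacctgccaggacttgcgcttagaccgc
Slc7a11 (chr3:50443564-50443863, minus strand): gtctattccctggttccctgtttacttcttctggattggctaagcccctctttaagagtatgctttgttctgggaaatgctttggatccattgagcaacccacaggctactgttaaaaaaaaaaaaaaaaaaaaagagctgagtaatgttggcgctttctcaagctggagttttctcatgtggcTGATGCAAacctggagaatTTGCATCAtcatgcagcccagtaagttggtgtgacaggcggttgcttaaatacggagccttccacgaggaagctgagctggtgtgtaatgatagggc
Cpa3 (chr3:20242132-20242431, minus strand): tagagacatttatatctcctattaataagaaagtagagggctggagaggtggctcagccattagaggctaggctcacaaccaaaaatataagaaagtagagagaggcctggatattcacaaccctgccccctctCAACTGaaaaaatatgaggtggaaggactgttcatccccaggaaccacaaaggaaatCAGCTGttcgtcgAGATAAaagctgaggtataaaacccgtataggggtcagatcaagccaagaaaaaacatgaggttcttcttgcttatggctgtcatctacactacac
Mcpt8 (chr14:56085148-56085447, minus strand): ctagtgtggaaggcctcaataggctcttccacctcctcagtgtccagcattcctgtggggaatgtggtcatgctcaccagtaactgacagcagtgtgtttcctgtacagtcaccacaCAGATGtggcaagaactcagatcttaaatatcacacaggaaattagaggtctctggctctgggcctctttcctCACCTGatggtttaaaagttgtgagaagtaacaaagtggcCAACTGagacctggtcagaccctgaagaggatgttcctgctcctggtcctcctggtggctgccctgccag

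ACGTG was found in 19.6% of all 32851 promoters of the RefSeq table and in 26.5% of those of the genes compared here. It was in 14 of 27 promoters of glycolytic enzymes (51.9%) and in 18 of 31 of other hypoxia-response genes (58.1%). Among all genes that rose above both controls it was in 25% of promoters, and among those that fell below both in 27.3%. ATTGG, the reverse of the CCAAT box, was found in 37.4% of all promoters and in 14 of 18 of the cholesterol synthesis genes (77.8%). The sterol element TCACNCCAC, present in 1.24% of all promoters, was in 0 of these 18 windows. TGATGCAA was in 0.895% of all promoters and in 4 of 30 of the ATF4 list (13.3%), and the Slc7a11 window holds it on both strands, at 66 and 47 bases before the start. AGATAA was in 11.2% of all promoters and in 10 of 30 of the mast cell and basophil list (33.3%). Among them is Cpa3, where it lies 46 bases before the start and close to a CAGCTG E-box at 59. CAGCTG itself was no more frequent in that list, in 4 of 30 (13.3%) against 16.3% of all promoters. CANNTG is so short that 72.3% of all promoters hold it, as did 7 of the 9 protease promoters. Genes with several starts count once per start, and a match describes these letters and no binding.

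Across the whole comparison, 2892 genes (28.4%) rose and 1870 (18.4%) fell, most of them by small amounts. The counts for gene lists below are to be read beside these shares. The median log2 fold was 0.34 among the genes that rose and −0.25 among those that fell, against 0.04 over all 10172. At least 2-fold changes with a call were counted in 179 genes higher (1.76%) and 40 lower (0.393%), and at least 3-fold ones in 25 (0.246%) and 11 (0.108%). With genes put in 4 equal groups by mean FPKM, the share that rose went from 32.6% in the lowest group to 22.7% in the highest, while the share that fell went from 10.5% to 24.7%. Small RNAs supplied 36 of the 50 highest and 17 of the 20 lowest folds, but 3 of the 135 small RNA genes rose and 1 fell, so they are left out of the ranks named below.

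The second control splits these calls. Of the 2892 genes that rose, 1467 (50.7%) also stood above the second control, and of the 1870 that fell, 651 (34.8%) also stood below it. These are 14.4% and 6.4% of all genes compared. The split differed among larger changes. Of 638 genes higher by at least 1.5-fold (6.27% of all compared), 310 stood above both controls (48.6%), and of 125 lower by as much (1.23%), 55 stood below both (44.0%). At 2-fold it was 81 of the 179 higher (45.3%) and 19 of the 40 lower (47.5%), and at 3-fold 9 of 25 (36.0%) and 7 of 11 (63.6%). Among the 5410 genes with no call, 2632 (48.7%) lay on the same side of both controls. In 1425 of the genes that rose the second control was at or beyond the 4-OHT value, in 813 it lay between control and 4-OHT, and in 654 it lay at or under the control. Measured against the second control, the median log2 fold of the risen genes was 0.012 and that of the fallen genes 0.16. The controls differ from each other more than 4-OHT differs from its own control in 7517 genes (73.9%). The interquartile range of the log2 ratios is −0.37 to 0.36 between the controls and −0.12 to 0.23 for 4-OHT over control. Labels give both controls the same genotype, so a gene on the same side of both is described below as standing above or below both controls, and the second control's value is given for named genes that rose or fell but are not.

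**Figure D1:**
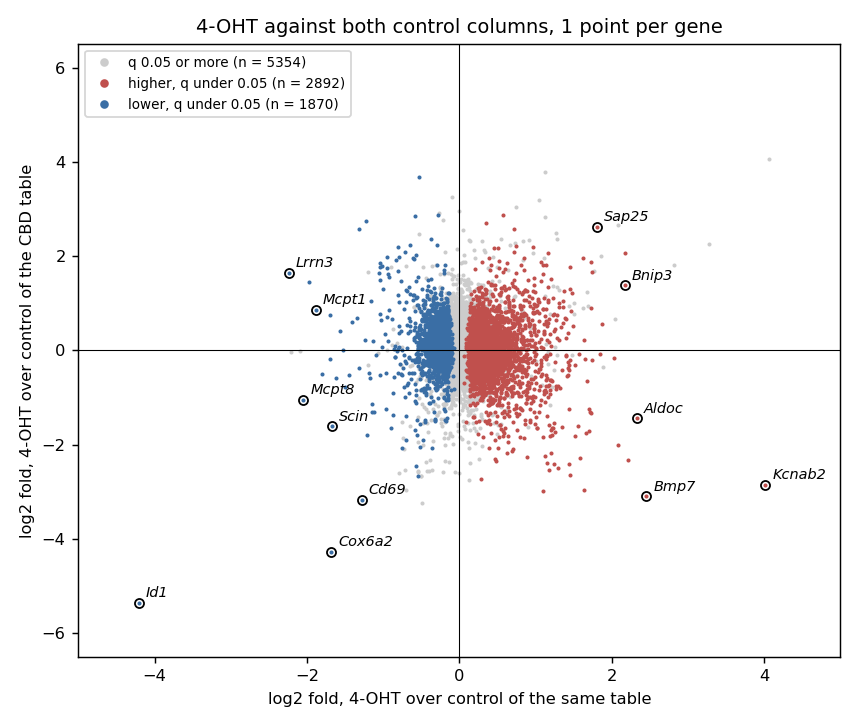
Each point is 1 gene, placed by its log2 fold of 4-OHT over the control of the same table (horizontal) and over the control of the CBD table (vertical). Red points rose, blue points fell and grey points had no call; Id1 and Cox6a2 lie low on both axes, Bnip3 and Sap25 high on both, and Kcnab2, Bmp7 and Aldoc high on the horizontal axis and low on the vertical one. Genes listed at 0 in a column are not drawn.

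The controls also differ by whole chromosomes. The median log2 ratio of the second control over the first was −0.61 on chromosome 14, −0.58 on X, −0.38 on 13, −0.35 on 5 and −0.25 on 4, and lay between −0.09 and 0.17 on each of the others. On chromosome 14 the interquartile range over 340 genes was −0.89 to −0.27, and on X that over 320 genes was −0.92 to −0.24, so the shift holds for most genes there and not for a few. On X, 57 of the 64 genes that rose stood above the second control (89.1%), and on chromosome 14 it was 53 of 67 (79.1%), against 17 of 51 on chromosome 18 (33.3%). With each chromosome's median removed from the second control, a setting chosen after the data were seen, 1498 of the risen genes (51.8%) stood above it and 810 of the fallen genes (43.3%) below it.

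Within the 4-OHT table itself the chromosomes differed less, though not evenly. On chromosome 5, 239 of 649 genes fell (36.8%) and 113 rose (17.4%), with a median log2 fold of −0.08. On chromosome 12, 29 of 355 fell (8.17%) and 131 rose (36.9%), with a median of 0.11. Chromosomes 14, 4, 16, X and 13 also had more genes that fell than rose, with shares of 22.4% to 28.2% falling. The tables hold no measure of DNA, and the part of these differences in any result was not tested.

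**Figure D2:**
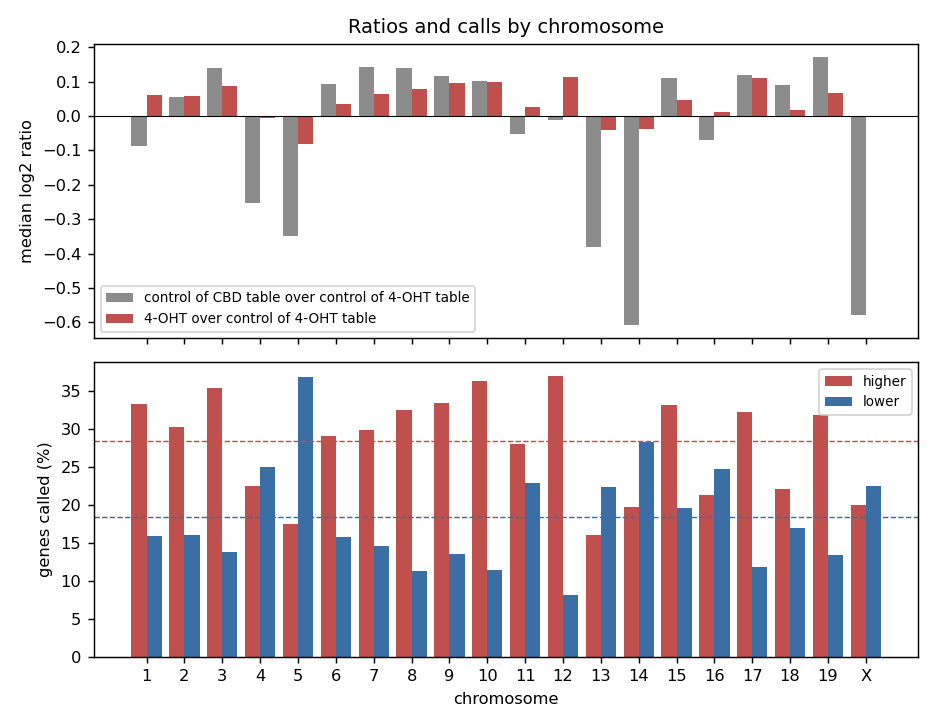
Upper panel, median log2 ratio per chromosome of the second control over the first (grey) and of 4-OHT over the first control (red); chromosomes 14 and X stand lowest for the controls, at −0.61 and −0.58. Lower panel, percent of the genes of each chromosome that rose (red) or fell (blue), with dashed lines at 28.4% and 18.4% for all genes; chromosome 5 has the tallest blue bar, at 36.8%.

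Id1 itself stood at 15.4 FPKM in the control, 0.741 with 4-OHT and 34.2 in the second control. Its log2 fold of −4.21 was the lowest of any gene with a call, and the 15 entries below it in rank had none. The gene lies on mm9 chromosome 2 from 152562010 to 152563146, and which exons the loxP sites flank is not given, so the FPKM covers any part that is kept. Among 8 neighbours of Id1 on chromosome 2 that reach 1 FPKM, 3 rose and 2 fell, beside 28.4% and 18.4% of all genes. Bcl2l1, which encodes the survival protein BCL-XL, went from 19.9 to 28.8 FPKM, with 31.04 in the second control, and the membrane protein gene Tm9sf4 from 26.7 to 22.5. The second family member Id2 fell from 10.1 to 7.81 FPKM, still above the second control at 4.28. Id3, at 2.45 and 1.72 FPKM, had no call. The E protein genes Tcf3 (37.9 and 38.1 FPKM) and Tcf12 (27.1 and 27.1) had none either, and Tcf4, another E protein gene, rose from 1.002 to 1.36 FPKM without passing 2.41 in the second control.

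The labelled cell type was set against defining markers. Progenitor genes were divided: of 36 stem and progenitor genes 16 were compared and 9 were listed at 0 in both columns. High values were those of the receptor gene Kit at 95.6 and 78.8 FPKM, sialophorin (Spn) at 114 and 99.8, Myb at 112 and 97.7, and Csf2rb, the shared beta chain of the GM-CSF, IL-3 and IL-5 receptors, at 223 and 401. The progenitor antigen gene Cd34 was low, at 2.06 and 2.16 FPKM. Other defining markers of blood cells and granulocytes were at or near 0. Ptprc, the pan-leukocyte antigen CD45, was listed at 0.104 and 0.0466 FPKM, the granule genes Mpo and Prtn3 at no more than 0.208, and Elane and Cebpa at 0 in both. Gata1 (232 and 219.7 FPKM) and Gata2 (51.3 and 59.9, with 113 in the second control) were high, as were mast cell and erythroid genes described below. Of the lists for other cells, 6 of 27 monocyte and macrophage genes, 6 of 34 lymphoid, 3 of 26 stromal and endothelial, 6 of 29 neural and 0 of 8 Y-linked genes reached 1 FPKM with the status OK.

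Cholesterol synthesis genes rose together. Of 20 enzymes compared, 19 rose and 17 of them stood above both controls, with a median log2 fold of 0.87, and 0.60 against the second control. In the steps from acetyl-CoA units to farnesyl pyrophosphate, all 7 enzymes rose and stood above both controls. Acat2, which makes acetoacetyl-CoA, went from 51.9 FPKM in the control to 103 with 4-OHT, against 51.98 in the second control. Both controls were near each other for Acat2. The kinase genes Mvk and Pmvk, which phosphorylate mevalonate in turn, went from 18.3 to 29.9 and from 49.00 to 109 FPKM. The decarboxylase Mvd and the prenyl synthase Fdps had the largest folds of these steps, from 13.99 to 39.5 FPKM (log2 fold 1.49) and from 214 to 539 (log2 fold 1.33), and the second control lay between the columns at 27.5 and 379.5. Hmgcs1, which makes HMG-CoA, is listed at 0 in both columns and could not be compared.

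All 3 enzymes that turn farnesyl pyrophosphate into lanosterol rose above both controls. Fdft1, squalene synthase, went from 34.97 to 64.6 FPKM, Sqle, the squalene epoxidase, from 91.5 to 135, and Lss, lanosterol synthase, from 20.9 to 43.2. Their second controls, at 27.1, 94.4 and 28.1 FPKM, all lay under the 4-OHT value. Of the 10 enzymes between lanosterol and cholesterol, 9 rose and 7 stood above both controls. Sc4mol, the C4 methyl sterol oxidase whose promoter is printed above, went from 48.8 to 128 FPKM (81.1 in the second control). Nsdhl, which acts with it, went from 20.1 to 41.3 FPKM against 19.4. Cyp51, the lanosterol demethylase, and Sc5d, a late desaturase, rose from 49.3 to 89.3 and from 15.5 to 28.3 FPKM. The changes at the isomerase Ebp (44.6 to 50.9 FPKM) and at Lbr (142 to 164), a sterol reductase of the nuclear envelope, were small, and Lbr stood at 171 in the second control. Tm7sf2, another sterol reductase gene, which rose from 2.49 to 6.96, did not reach the second control at 8.005.

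Genes that sense and import sterols were mixed, with 8 of 15 rising, 5 of them above both controls, and 3 falling. Insig1, which holds SREBP precursors in the endoplasmic reticulum, went from 60.8 to 129.9 FPKM, above the second control (70.5). The sterol carrier gene Stard4 rose from 23.3 to 37.1 FPKM. Srebf2, which encodes SREBP2 itself, rose from 94.2 to 132 FPKM but stood at 148 in the second control. The SREBP escort gene Scap fell from 34.4 to 30.2 FPKM. Fatty acid synthesis genes were mixed: of 18 genes, 9 rose, 4 of them above both controls, and 6 fell. Fasn, the fatty acid synthase, fell from 109.7 to 98.4 FPKM and Acaca, the carboxylase ahead of it, from 32.7 to 28.2, but both stood above the second control (55.1 and 21.8). Acly, which supplies cytosolic acetyl-CoA to both pathways, rose from 134 to 176.

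**Figure D3:**
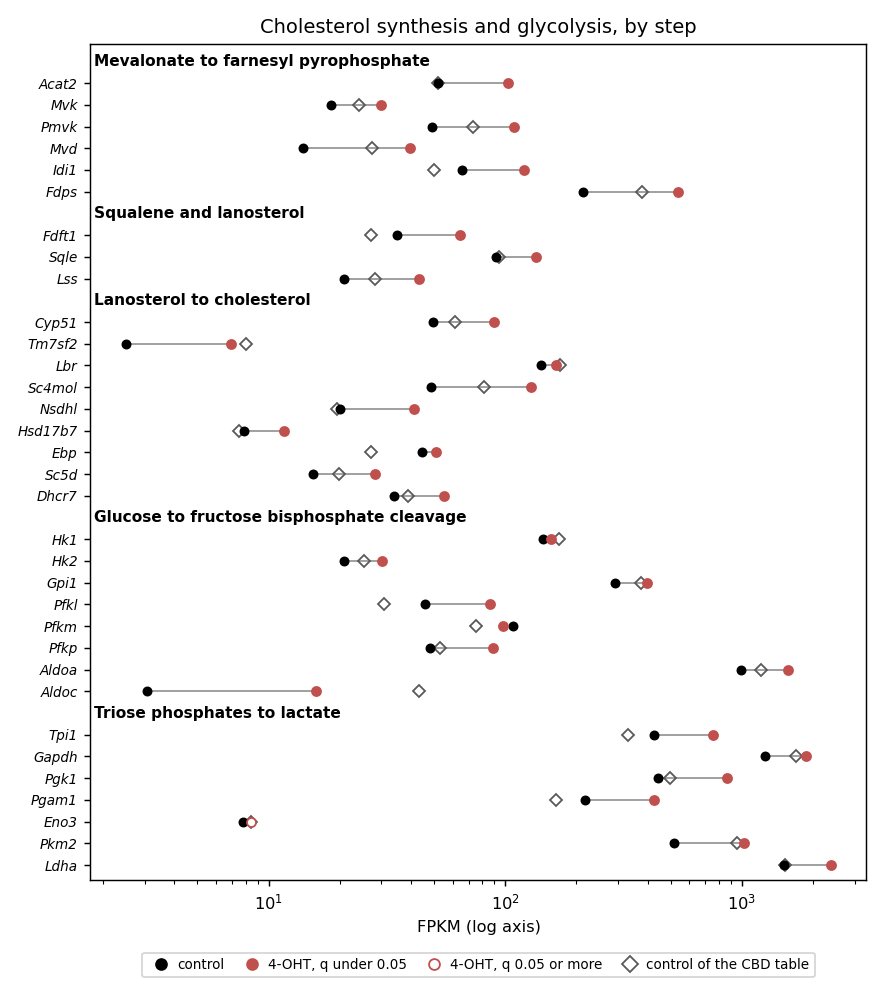
FPKM (log axis) of the enzymes of cholesterol synthesis and glycolysis, by step, in the control (black), with 4-OHT (red; open where there was no call) and in the control of the CBD table (grey diamonds). The red points lie to the right of both controls for 16 of the 18 cholesterol genes drawn, while Tm7sf2 and Lbr stayed left of the diamond. In glycolysis Eno3 and Pfkm did not rise. Of the 7 early enzyme genes that rose, 5 passed the diamond, and Aldoc was not among them.

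Genes of glycolysis rose along nearly the whole pathway. Of 18 glycolytic enzyme genes 14 rose, 12 of them above both controls, and 1 fell, with a median log2 fold of 0.66, and 0.38 against the second control. Summed over all 22 entries of this list, compared or not, FPKM was 6146 in the control, 9903 with 4-OHT and 7219 in the second control. Among the early enzymes, hexokinase 2 (Hk2) went from 20.8 to 30.2 FPKM, the isomerase Gpi1 from 290.2 to 396, and aldolase A (Aldoa) from 992 to 1565. The phosphofructokinase isoforms, which share the committed step, did not move alike: the liver form Pfkl rose from 45.9 to 86.04 FPKM and the platelet form Pfkp from 48.2 to 88.4, while the muscle form Pfkm fell from 108 to 97.4. Second controls for these isoforms were 30.6, 52.8 and 75.1 FPKM, so that Pfkl and Pfkp stood above both controls and Pfkm stood below its own control alone. Whether the isoforms differ from each other was not tested.

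The later part of the pathway, from triose phosphates to lactate, rose in 6 of 7 genes, each above both controls, with a median log2 fold of 0.82. The gene without a call was the enolase gene Eno3, so no rise was seen at the enolase step among these 7. Tpi1, the triose isomerase, went from 427 to 753 FPKM against 329 in the second control. Pgk1, the first kinase to make ATP, went from 442 to 863 FPKM against 497. The mutase Pgam1 went from 217 to 427 FPKM against 164. For these 3 the 4-OHT value was far from both controls. Lactate dehydrogenase A (Ldha), whose promoter is printed above, was the most abundant of these transcripts at 1508 FPKM in the control, 2383 with 4-OHT and 1518 in the second control. Pkm2, pyruvate kinase, rose from 518 to 1016 FPKM and Gapdh from 1249 to 1871, with second controls close below at 956 and 1698.

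Genes for the uptake and disposal of glucose carbon moved with the enzyme genes. Of 16 transport and regulatory genes 10 rose, 7 of them above both controls, and 1 fell. The glucose transporter gene Slc2a1 went from 61.5 to 116 FPKM and Slc2a3 from 71.3 to 146, against 52.03 and 130.2 in the second control. Slc16a3, the lactate exporter MCT4, rose from 170.3 to 245 FPKM, while Slc16a1, which encodes MCT1, fell from 98.9 to 78.2, still above the second control at 51.98. Pdk1, a kinase that keeps pyruvate out of the mitochondrion, rose from 9.62 to 22.7 FPKM, its log2 fold of 1.23 being the largest of this list. Few mitochondrial genes had a call. Of 25 genes of pyruvate dehydrogenase and the citric acid cycle 4 rose and 4 fell (16% each). Of 47 genes of the respiratory chain and ATP synthase 9 rose (19.1%) and 6 fell (12.8%). Over all genes 28.4% rose and 18.4% fell. The median log2 folds of both lists were 0.04 and 0.03, and 0.31 and 0.11 against the second control. Idh1, the cytosolic isocitrate dehydrogenase on the cycle's list, rose from 25.9 to 52.6 FPKM.

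Other genes of the hypoxia response rose in 20 of 27 cases, 15 of them above both controls, and none fell. Bnip3, a mitochondrial protein that starts mitophagy, had the highest fold with a call above both controls among the genes ranked here. That ranking passes over predicted genes, several-symbol entries and small RNAs. Bnip3 went from 17.8 FPKM in the control to 80.6 with 4-OHT, against 30.97 in the second control. Its log2 fold was 2.17, and 1.38 against the second control. Ankrd37, another HIF1 target, went from 4.13 to 11.5 FPKM against 4.64. Egln1, the prolyl hydroxylase that marks HIF1 for destruction, went from 6.11 to 11.9 FPKM, the collagen hydroxylase gene P4ha2 from 30.6 to 52.6, and the mitochondrial gene Fam162a from 127 to 188. All 3 stood above the second control (7.63, 22.4 and 116 FPKM). Vegfa, a growth factor for vessels, and Ddit4, an inhibitor of mTOR, rose from 8.74 to 16.8 and from 13.4 to 44.8 FPKM, but stood at 26.98 and 113 in the second control. The genes of the factor HIF1 had no call: Hif1a stood at 39.9 and 37.9 FPKM and its partner Arnt at 18.5 and 18.9. The ubiquitin ligase gene Vhl had none either, at 13.6 and 14.3 FPKM. With chromosome medians removed from the second control, the counts above both controls were 16 cholesterol, 12 glycolytic and 15 hypoxia genes.

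Outside these pathways the highest ranked folds above both controls were in genes of low level. The long noncoding RNA Neat1, scaffold of nuclear paraspeckles, went from 2.63 to 9.94 FPKM against 6.67 in the second control. Cpt1b, the muscle form of the enzyme that admits fatty acids to mitochondria, went from 0.508 to 1.77 FPKM, and Pdgfb, a platelet-derived growth factor chain, from 0.608 to 1.84. The heat shock cochaperone gene Dnajb5 rose from 0.355 to 1.41 FPKM, the ankyrin repeat gene Ankrd23 from 0.587 to 1.81, Wtip, a LIM domain protein, from 1.12 to 3.26, and the metal transporter gene Slc11a1 from 0.372 to 1.17. Rab44, a large GTPase gene known from mast cells, stood higher, from 4.15 to 11.1 FPKM with 9.198 in the second control. Sap25, a corepressor subunit gene at 1.45 and 5.28 FPKM, shares its locus with a read-through entry, so its reads are uncertain.

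Of the highest folds with a call, several were not above both controls, and their order depends on the pseudocount. Kcnab2, a potassium channel subunit gene, had the highest log2 fold with a call among the ranked genes, 4.01. It went from 0.333 to 6.903 FPKM, yet stood at 50.4 in the second control. The same held for the growth factor gene Bmp7 (0.235, 1.73 and 15.6 FPKM in control, 4-OHT and second control), for aldolase C, Aldoc (3.07, 15.8 and 43.2), for the ceramide synthase gene Lass4 (0.1605, 1.11 and 5.96) and for desmin, Des (0.552, 2.67 and 11.1). In each, the control of the 4-OHT table was the lowest of the 3 columns. Bnip3 had a higher log2 fold than Des, and with a pseudocount of 1 FPKM also a higher one than Aldoc, Bmp7 and Lass4 (2.12 against 2.05, 1.15 and 0.86). Among falls, the neuronal leucine-rich gene Lrrn3 went from 1.66 to 0.273 FPKM, with 0.0188 in the second control. Stk32a, a kinase gene, and Spon2, a secreted matrix protein gene, fell from 3.03 to 0.868 and from 5.13 to 1.67 FPKM, with 0.473 and 1.23 in the second control. Here the control of the 4-OHT table was the highest column.

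Mast cell protease genes fell against their own control. Of 11 granule protease genes 9 fell and none rose, 5 of the 9 below both controls, with a median log2 fold of −1.32, and −0.37 against the second control. Summed over all 14 entries of this list, compared or not, FPKM was 275 in the control, 96.5 with 4-OHT and 134 in the second control. Cpa3, the mast cell carboxypeptidase that makes up most of that sum, stood at 148 FPKM in the control, 48.2 with 4-OHT and 71.9 in the second control. The chymase gene Cma1 followed at 66.3, 24.2 and 34.5 FPKM, and granzyme B, Gzmb, at 25.3, 10.05 and 13.04. Mcpt8, a protease of basophils, had the lowest log2 fold of the group, −2.05, at 3.798, 0.842 and 1.85 FPKM. In all 4 the second control lay between the control and the 4-OHT value. Mcpt1, Mcpt2 and Mcpt4, chymases of mucosal or connective tissue mast cells, fell from 11.1 to 2.94, from 9.11 to 4.39 and from 1.61 to 0.664 FPKM, but stayed above the second control (1.58, 2.51 and 0.271). The related proteases may share reads. The bulk values cannot tell fewer cells of a type from less RNA per cell.

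Several of these genes are neighbours. The stretch of mm9 chromosome 14 from Cma1 to Gzmb (56560288 to 56881097) holds 16 entries of the table, all of the chymase and granzyme family, of which 6 were expressed enough to compare and all 6 fell. The other 10 stayed under 1 FPKM in both columns. Of the 5 nearest compared genes on the Cma1 side, 2 rose, 1 fell and 2 had no call. Khnyn and Ripk3 rose from 10.2 to 12.6 and from 77.1 to 87.2 FPKM, and Sdr39u1, next to Cma1, had no call at 39.5 and 38.4. The median log2 fold of chromosome 14 was −0.04. This chromosome stands lower in the second control, by a median log2 ratio of −0.61, and with chromosome medians removed 5 proteases lay below both controls. Cpa3 (chromosome 3) and the tryptase Tpsb2, which went from 4.24 to 1.41 FPKM with 1.400 in the second control, lie elsewhere.

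Genes for the mast cell's mediators and receptors mostly did not fall with its proteases. Of 11 such genes 7 rose, 1 of them above both controls, and 2 fell, with a median log2 fold of 0.34, and −0.53 against the second control. Hdc, which makes histamine, rose from 128 to 159.6 FPKM, Tph1, which starts serotonin synthesis, from 163 to 283, and Slc18a2, which loads both amines into granules, from 16.03 to 22.2. The cytokine gene Il4 rose from 14.6 to 27.8 FPKM. Their second controls were higher still, at 294, 295, 31.98 and 77.8 FPKM. Il1rl1, the receptor for IL-33, rose above both controls, from 237 to 301 FPKM with 278 in the second control. Of the IgE receptor chains, Fcer1a fell from 96.9 to 53.2 FPKM, with 52.4 in the second control. Ms4a2, the beta chain, rose from 95.7 to 109 FPKM, with 173 in the second control, so neither was beyond both controls. Kit, the stem cell factor receptor, fell from 95.6 to 78.8 FPKM, below both controls.

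**Figure D4:**
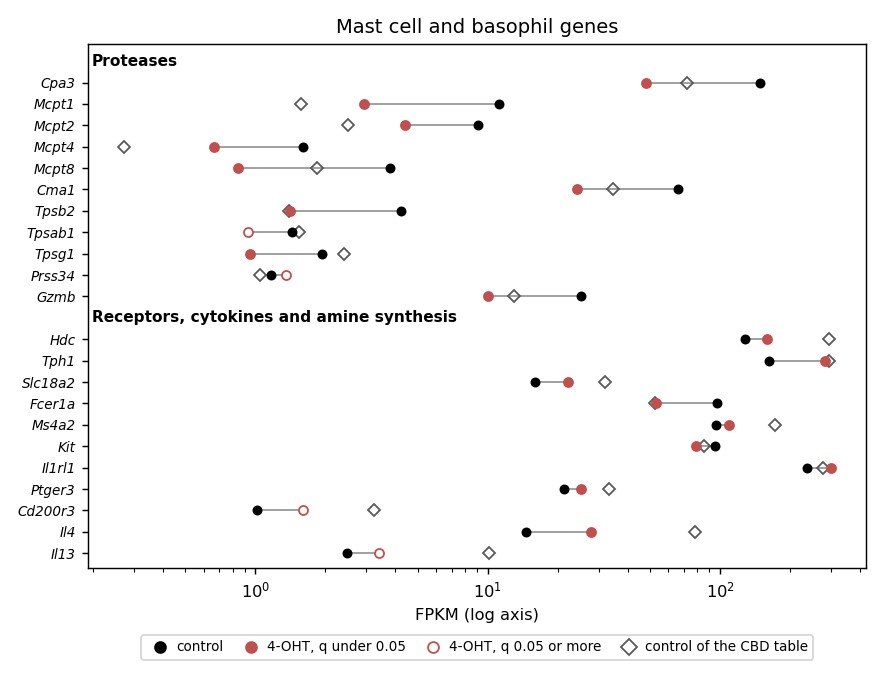
FPKM (log axis) of mast cell and basophil genes in the control (black), with 4-OHT (red; open where there was no call) and in the control of the CBD table (grey diamonds). In the upper block 9 of 11 proteases lie left of their control with a call; in the lower block 7 of 11 mediator and receptor genes lie to the right of it, and Fcer1a and Kit to the left.

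Other genes among the lowest folds below both controls have different roles. The progenitor surface antigen gene Ly6a (Sca-1) went from 5.65 to 1.55 FPKM against 2.24 in the second control. Ifitm1, a membrane protein gene of progenitors and of the interferon response, went from 13.4 to 4.64 FPKM against 8.01. Scin, which encodes the actin-severing protein scinderin, went from 8.58 to 2.61 FPKM against 8.17. For Scin the controls were close together and the 4-OHT value lay far below either. Gsta3, a glutathione transferase gene, fell from 1.61 to 0.428 FPKM, and the activation antigen gene Cd69 from 1.02 to 0.361. Cox6a2, a muscle cytochrome oxidase subunit gene, fell from 1.93 to 0.531 FPKM, but its controls lie far apart, with 12.1 in the second. Hist1h4m, a histone H4 gene whose near-identical copies share reads, fell from 10.9 to 4.65 FPKM. In the CBD column of the other table, Cpa3, Scin and Ifitm1 stand at 658, 125 and 115 FPKM.

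Amino acid transporter genes fell, while Atf4 and several of its stress targets rose. Of 9 amino acid transporter genes 6 fell, all 6 below both controls, and 1 rose, with a median log2 fold of −0.20, and −1.09 against the second control. The arginine transporter gene Slc7a1 went from 72.2 to 50.8 FPKM against 91.5 in the second control, and its relative Slc7a3 from 1.23 to 0.485 against 0.709. Slc7a5, the light chain of the leucine transporter LAT1, fell from 219 to 189.7 FPKM and the neutral amino acid transporter gene Slc1a4 from 21.4 to 17.2. Slc7a11, which imports cystine and whose promoter is printed above, fell by a small amount, from 15.4 to 13.8 FPKM against 37.4. Cth, the last enzyme of cysteine synthesis, fell from 33.8 to 26.3 FPKM. Of 9 regulators of this response 6 rose, none of them above the second control, and 1 fell. Atf4 rose from 318 to 401 FPKM, Nupr1 from 12.5 to 29.8, and the pseudokinase gene Trib3 from 32.5 to 39.5. The second control held 775, 159.9 and 260.2 FPKM of these, the highest of the 3 columns for each.

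Genes for building ribosomes and nucleotides fell by small steps. Of 35 ribosome biogenesis genes 27 fell and none rose, 8 of them below both controls, with a median log2 fold of −0.18, and 0.19 against the second control. Most of the genes that fell therefore stood at or above the second control. Rrp12, a maturation factor, went from 53.01 to 35.9 FPKM, and Utp20, a processing factor of the small subunit, from 18.5 to 13.8. Polr1b, a subunit of RNA polymerase I, went from 48.4 to 36.98 FPKM. These 3, taken from the 8, stood below both controls (37.2, 14.7 and 38.6 FPKM in the second). Of 27 nucleotide synthesis genes 15 fell, 2 of them below both controls, and 5 rose, with a median log2 fold of −0.17, and 0.33 against the second control. Cad, which starts pyrimidine synthesis, fell from 118 to 86.1 FPKM, and Ppat, which starts purine synthesis, from 73.03 to 51.6, while the second control stood lower still at 66.7 and 40.6. Myc, a driver of both gene sets, fell from 154 to 138 FPKM, with 93.5 in the second control. The ribosomal protein genes themselves rose in 16 of 47 cases (34.0%), near the 28.4% of all genes, and fell in 1. Their median log2 fold was 0.11, and −0.20 against the second control. Rps18, the most abundant of the ranked genes that rose, went from 3357 to 3802 FPKM, and both lie below 4424 in the second control.

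Cell division genes rose slightly. Of 36 mitosis genes 24 rose and none fell, 21 of the 24 above both controls, with a median log2 fold of 0.21, and 0.31 against the second control. Cyclin B2, Ccnb2, stood at 75.03 FPKM in the control, 102 with 4-OHT and 83.1 in the second control, and the proliferation antigen gene Mki67 at 68.8, 88.6 and 58.3. Cyclin B1 and cyclin A2 had no call, at 140.2 and 139.9 FPKM (Ccnb1) and 185 and 185 FPKM (Ccna2). DNA replication genes were mostly uncalled, 6 of 34 rising (17.6%) and 4 falling (11.8%), against 28.4% and 18.4% of all genes. Among 27 regulators of G1, 15 rose and 5 fell. Cdk6, a kinase that opens G1, fell from 53.5 to 33.9 FPKM, below both controls (37.8 in the second). The kinase inhibitor genes Cdkn1a and Cdkn1b rose from 14.2 to 26.1 and from 12.1 to 23.01 FPKM without passing the second control (50.3 and 25.7).

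**Figure D5:**
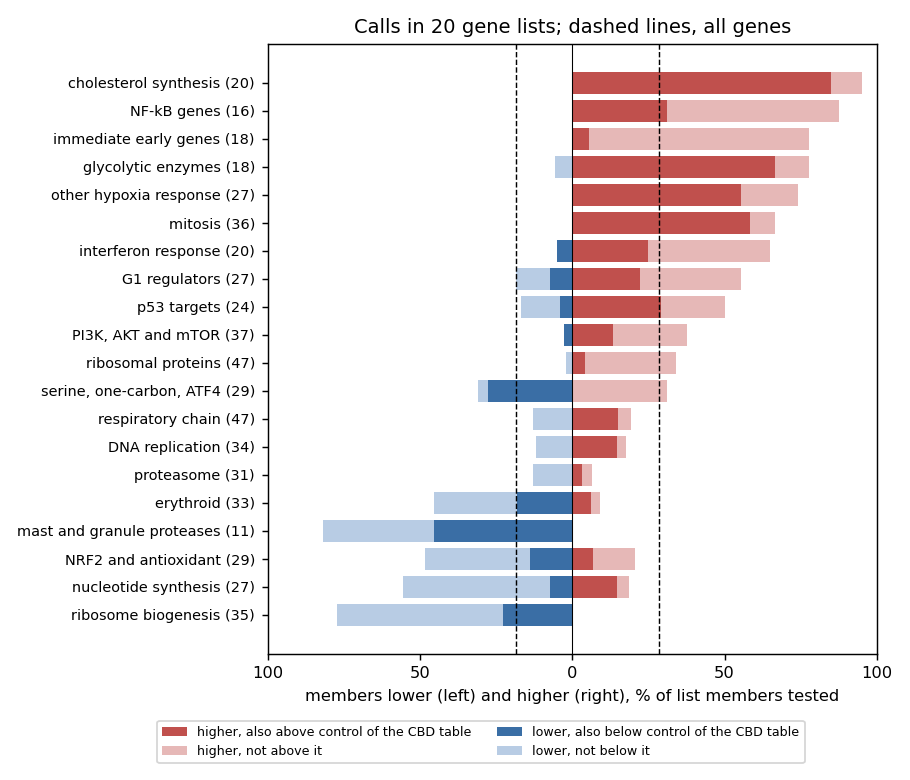
Percent of the compared genes of 20 lists that rose (right, red) or fell (left, blue), dark where the 4-OHT value also lies beyond the control of the CBD table and pale where it does not; numbers in brackets are list sizes and dashed lines mark 28.4% and 18.4% for all genes. Cholesterol synthesis, glycolysis, hypoxia and mitosis are mostly dark on the right, immediate early genes mostly pale, and ribosome biogenesis and nucleotide synthesis mostly pale on the left.

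Blood lineage genes were divided. Of 20 myeloid transcription factor genes 10 rose, none above the second control, and 7 fell, 4 of them below both controls. Fli1 and Erg, related ETS factors of stem cells and megakaryocytes, rose from 28.8 to 40.96 and from 4.803 to 8.18 FPKM, with second controls of 45.6 and 8.87. Sfpi1, which encodes PU.1, rose from 28.6 to 39.9 FPKM with 45.7 in the second control. Myb fell from 112 to 97.7 FPKM and Cebpb from 3.46 to 2.31, both below the second control (107 and 13.02). The beta chain genes Csf2rb and Csf2rb2 rose side by side, from 223 to 401 and from 108 to 202 FPKM, and stood at 526 and 243 in the second control. They are near-identical copies that may share reads.

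Of 33 erythroid genes 15 fell, 6 of them below both controls, and 3 rose, with a median log2 fold of −0.08, and 0.26 against the second control. The embryonic globin gene Hbb-bh1 fell from 11.5 to 4.89 FPKM, Rhag, a channel of the Rhesus complex, from 23.2 to 14.4, and erythroid spectrin, Spna1, from 9.25 to 5.32. Each was lower still in the second control, at 0.648, 5.94 and 2.58 FPKM. Iron handling fell in 9 of 17 genes, 3 of them below both controls, and rose in 5. Slc40a1, the iron exporter ferroportin, fell from 22.6 to 8.47 FPKM and the ferritin heavy chain Fth1 from 3085 to 2457, neither below the second control (5.56 and 2323), while Tfrc, the transferrin receptor, had no call at 218 and 222. Among 29 NRF2 and antioxidant genes 14 fell, 4 of them below both controls, and 6 rose. Gclm, the modifier of glutathione synthesis, stood at 556, 353 and 388 FPKM in control, 4-OHT and second control, and sulfiredoxin, Srxn1, at 14.2, 8.43 and 12.1.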

How the data were processed

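RNA was isolated from 6 samples of AE9a cells with a Qiagen column kit and sequenced from standard Illumina libraries, per the labels' protocols. The aligner Bowtie 0.12.2, the expression comparison tool Cuffdiff and the genome build mm9 are named, without their settings, per the submitters' processing notes. The version of Cuffdiff was not given in the sources used here, nor was its annotation. The deposited tables hold FPKM values computed by the authors, 1 per group, and, from the authors' own test, a p-value and a q-value for each gene. The deposited log2 column was used as a check: among compared genes above 0 in both columns, 0 had a deposited log2 more than 0.01 away from that of their FPKM ratio. Depth per sample is unknown, and ratios of low values did not recover it.

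Log2 folds were computed with python 3.11.15, pandas 2.3.3 and numpy 2.4.6, with 0.1 FPKM added to each value, and figures with matplotlib 3.10.9. No test was added to the authors' own. The counting of calls was tested on simulated data. Counts, folds and list medians were recomputed under other thresholds, minimums, pseudocounts and controls. The second control comes from a separate table, and how the tables were scaled to each other is not known; the median log2 ratio of its control was set to 0 in an alternative.

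Members and the 56 gene lists with 10 sublists of pathway steps were chosen with earlier results of these data known. Named genes are Id1, the 12 highest and 12 lowest folds with a call beyond both controls, the 5 and 5 not beyond both, up to 5 called members per list, pathway steps, and the most abundant risen and fallen genes, passing over predicted genes, several-symbol entries and small RNAs. Other genes named (cell type markers, E proteins, list members outside the rule or without a call such as Hif1a, and genes flanking the protease stretch) were chosen after their values were seen. Some genes that the rule takes in are not reported here. Gene positions are those of the tables. Promoters are from RefSeq on GRCm38.p6.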

Additional observations from a re-analysis of the deposited data

How the results depend on the processing

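Against the second control in place of the first, the log2 fold changed sign in 57 genes with a call among the 159 named and in 20 of 55 list medians (counting those at least 0.1 from 0), and the cause was not tested. Genes that rose had these negative log2 folds against the second control: Aldoc −1.44, Atf4 −0.95, Bcl2l1 −0.11, Bhlhe40 −0.20, Bmp7 −3.10, Cdkn1a −0.94, Cdkn1b −0.16, Coro1a −0.98, Csf2rb −0.39, Csf2rb2 −0.27, Ddit4 −1.33, Des −2.01, Erg −0.12, Fli1 −0.16 and Gata2 −0.91. The others were Hdc −0.88, Il4 −1.48, Kcnab2 −2.85, Lass4 −2.33, Lbr −0.061, Ms4a2 −0.67, Nupr1 −2.42, Psmb9 −1.11, Rps18 −0.22, Sfpi1 −0.20, Slc18a2 −0.53, Srebf2 −0.16, Tcf4 −0.78, Tm7sf2 −0.20, Tph1 −0.060, Trib3 −2.72 and Vegfa −0.68. Genes that fell had these positive ones: Acaca 0.37, Cad 0.37, Eng 0.19, Fasn 0.84, Fcer1a 0.022, Fth1 0.081, Hbb-bh1 2.74, Id2 0.85, Lrrn3 1.65, Mcpt1 0.86, Mcpt2 0.78, Mcpt4 1.04, Myc 0.56 and Nr1d1 0.49. To these are added Nr1d2 0.052, Pfkm 0.37, Ppat 0.35, Rhag 1.27, Slc16a1 0.59, Slc40a1 0.60, Spna1 1.02, Spon2 0.41, Stk32a 0.76, Tgfbr2 2.08 and Tpsb2 0.0098. List medians that turned negative were cholesterol efflux −0.020, ribosomal proteins −0.20, circadian clock −0.14, glucocorticoid response −0.32, FoxO −0.23, BCL2 family −0.013, immediate early −0.81, NF-kB −0.48, ERK feedback −0.14, JAK-STAT feedback −0.17, chemokines and adhesion −0.33, myeloid granule −0.37, monocyte and macrophage −0.073, lymphoid −0.19, interferon response −0.023 and antigen presentation −0.27. Those that turned positive were nucleotide synthesis 0.33, ribosome biogenesis 0.19, NRF2 and antioxidant 0.064 and iron and metal 0.047.

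With a minimum change of 1.5-fold, 638 genes were higher and 125 lower, 310 and 55 of them beyond both controls, since fewer genes pass. A distance of at least 1.2-fold from the second control left 827 genes above and 300 below both controls. The 4 counts stayed within 1.5 times their value with a q threshold of 0.01, no minimum or a minimum of 5 FPKM, several-symbol entries, small RNAs and predicted genes left out, the second control rescaled, or, chosen after the data were seen, the status OK required in both tables or chromosome medians removed. No named gene with a call and no list median at least 0.1 from 0 changed sign with a pseudocount of 0.01 or 1 FPKM, or with the median of all genes subtracted. No paired analysis was possible because the tables hold 1 value per group, and leaving out single samples was not run for the same reason. The depth is unknown, so no detection limit can be set for genes of low FPKM.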

Other observations

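Signalling and immune lists rose against their own control in larger shares than all genes (28.4%). In each list given here, a smaller share of the rises passed the second control than among all risen genes (50.7%). Of 20 interferon-response genes 13 rose, 5 of them above both controls, led by Irf7, a master regulator of type I interferon, from 0.891 to 2.14 FPKM (1.87 in the second control), and Stat2, which carries the interferon signal, from 3.01 to 6.63 (4.93). Of 15 antigen presentation genes 7 rose, none above the second control, with the immunoproteasome gene Psmb9 from 29.9 to 54.9 FPKM and 119 in the second control. Of 18 immediate early genes 14 rose and 1 stood above both controls: Btg2, an antiproliferative gene, from 9.36 to 15.5 FPKM (11.9). NF-kB genes rose in 14 of 16 cases, 5 above both controls, and glucocorticoid-response genes in 9 of 12, none above both. JAK-STAT feedback genes rose in 12 of 22 cases (3 above both controls), ERK feedback genes in 8 of 12 (3) and FoxO genes in 14 of 23 (2).

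Among 24 p53 target genes 12 rose, 7 above both controls, and 4 fell. Ddb2, a DNA damage sensor, went from 4.14 to 7.42 FPKM (5.51 in the second control), Sesn1, a stress-induced inhibitor of mTORC1, from 10.96 to 18.1 (11.4), and Trp53 itself from 7.22 to 9.98 (3.99). The target most used as a readout, Mdm2, had no call at 12.2 and 12.7 FPKM. In the clock list 8 of 14 genes rose, 2 above both controls, and 2 fell. Bhlhe40, a repressor of the clock and a hypoxia target, went from 11.6 to 39.2 FPKM with 45.1 in the second control, while Nr1d1 and Nr1d2, the REV-ERB repressors, fell from 4.904 to 3.57 and from 2.94 to 1.99 FPKM, neither below the second control (2.52 and 1.92). Coro1a, an actin regulator of leukocytes, rose from 81.03 to 159 FPKM with 313 in the second control. Few proteasome genes had a call, with 2 of 31 rising and 4 falling, and few cytosolic heat shock genes, with 2 of 27 rising and 5 falling. Their median log2 folds were −0.022 and 0.0072 against the control, and 0.30 and 0.25 against the second control. Endoglin, Eng, a TGF-beta coreceptor, fell from 5.18 to 2.31 FPKM and Tgfbr2 from 3.31 to 1.98, neither below the second control (2.01 and 0.391).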
